A study of Mus musculus with 2 samples.

Results

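Conventional CD4 T cells were followed here in mouse colon tumours. The cells were chosen by measured transcript counts, so the genes of the rule below are no finding. A barcode counted as such a cell with at least 2 unique molecular identifiers (UMIs, tags that mark single captured RNA molecules) of Cd3d, Cd3e and Cd3g together, at least 1 of Cd4, none of Cd8a, Cd8b1, Foxp3, Trdc, Cd79a or C1qa, and fewer than 10 UMIs of Epcam, Krt8 and Krt18 per 10000. Of 14408 barcodes in the series, 13282 had at least 200 genes and under 20% mitochondrial UMIs, and 269 of these met the rule. They were 53 cells of the library labelled KO and 216 cells of the library labelled WT.

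The study profiled colon tumor tissue by single-cell RNA sequencing, with 1 library per genotype. The library labelled KO came from ECM1Flox/Flox mice with Villin-Cre, in which the recombinase is expressed from the promoter of Villin, a gene of intestinal epithelium and not of T cells. The library labelled WT came from ECM1Flox/Flox mice, which carry the floxed alleles too and lack Cre. The sources used here do not give how many mice went into a library, how the tumours arose, which sex the mice had or which exons were floxed. With 1 library on each side there was no replicate spread and no test was possible. All 95% intervals below cover counting error only, and UMIs of 1 cell are not independent draws from a genotype.

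Conventional CD4 T cells recognise peptides on MHC class II molecules and help other cells through secreted cytokines and surface ligands. In mice as in humans they take on states named after their products: Th1 cells make interferon gamma, Th17 cells make interleukin-17 and interleukin-22, and Th2 cells make interleukin-4, interleukin-5 and interleukin-13. In the gut most of them are antigen-experienced cells that stay in the tissue, and Foxp3-positive regulatory T cells, set apart here by the gate, form the other large CD4 population.

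The 53 members of the library labelled KO held 195241 UMIs (906 to 13413 per cell, median 2908) and the 216 members of the library labelled WT held 745656 (738 to 16538, median 2650.5), so values of the KO library are the less precise ones. No member shared its barcode with a member of the other library, and 2 members had a barcode that occurs in the other library at all, among 17 shared barcodes. The libraries differed in sex genes: Xist had 254 UMIs in KO members and 0 in WT members, and Ddx3y, a Y-linked gene, had 0 in KO members and 138 in WT members. They also differed in a transcript related to ribosomal RNA, Rn18s-rs5, which took 50179 CPM of KO members and 3797 CPM of WT members. CPM are UMIs of a gene in the summed cells, divided by all their UMIs and scaled to counts per 1e6. The same transcript stood at 47848 CPM in KO and 4101 CPM in WT gamma-delta T cells, and at 30449 CPM in KO and 2964 CPM in WT B cells. Genotype, sex genes, this transcript and library cannot be told apart in such a design.

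RNA of neutrophils marked the members of the library labelled WT. S100a8 and S100a9, which encode the subunits of the neutrophil protein calprotectin, had 9 and 5 UMIs in KO members, against 4199 and 5341 UMIs in WT members. Of 10 neutrophil markers measured, that is with at least 20 UMIs over both libraries, 9 were at least 2-fold lower in KO members, against 16.2% of all 5744 genes measured. Their summed level was 333 CPM in KO members and 15152 CPM in WT members, with Csf3r, Cxcr2 and Mmp8 at 0 in KO members and at 73, 30 and 44 UMIs in WT members. Il1r2, which activated T cells also express, was the exception. It had 44 of the 65 KO UMIs of these markers and 97 of the 11298 WT UMIs. The KO sum was thus mostly Il1r2, which also stays in the values per member below. All 5 measured mast cell markers were also at least 2-fold lower, at a summed level of 128 CPM in KO members and 944 CPM in WT members. S100a8 was found in 17.0% of KO and 41.7% of WT members, and in 11.3% of KO and 46.4% of WT B cells. The neutrophil gate held 151 KO cells and 1802 WT cells. Of the members, 15 of 53 in the library labelled KO and 128 of 216 in the library labelled WT had at least 10 UMIs per 10000 from marker lists of neutrophils, mast cells, macrophages, dendritic cells and plasma cells. These lists included Il1r2, so T cells that express it can be among the members called rich in such RNA. Per member, the neutrophil markers had a median of 0, a mean of 2.65 and a highest value of 15.5 UMIs per 10000 in the library labelled KO, against a median of 4.33, a mean of 91.5 and a highest value of 2342 in the library labelled WT. At least 10 per 10000 were found in 4 of 53 KO and 51 of 216 WT members. The WT sum thus came mostly from a minority of members. Values without the members rich in such RNA are given beside results whose direction they turn and, with the other alternatives, in the closing section, and the part of this RNA in the results was otherwise not tested. B cell markers summed to 1 UMI in KO members and 5 UMIs in WT members, and fibroblast markers to 4 and 5.

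Ecm1, the floxed gene, encodes a secreted matrix protein. Members held 3 UMIs of it in the library labelled KO (15.4 CPM) and 30 UMIs in the library labelled WT (40.2 CPM). In the epithelial gate, where the Cre is meant to act, Ecm1 stood at 39.4 CPM in KO and 36.3 CPM in WT cells. A transcript counted outside the floxed exons would not show their loss, so these values do not check the genotype labels.

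The gate drew lines through low counts. Before the exclusions, 126 KO cells and 453 WT cells carried both CD3 and Cd4 transcripts, and Foxp3 took out most of those removed, 55 KO and 205 WT cells. Just inside the limits were 3 KO and 24 WT members with exactly 2 CD3 UMIs and 26 KO and 131 WT members with exactly 1 Cd4 UMI. Just outside were 0 KO and 17 WT cells with 1 CD3 UMI that passed all else. The median member had 9 CD3 UMIs and 2 Cd4 UMIs in the library labelled KO, against 6 CD3 UMIs and 1 Cd4 UMI in the library labelled WT. A further 80 KO and 374 WT cells with CD3 transcripts had no UMI of Cd4, Cd8a, Cd8b1, Foxp3 or Trdc and belong to no T cell gate. Foxp3-positive cells with 1 Foxp3 UMI made up 41.2% of that gate in the KO library and 44.5% in the WT library, and cells that express Foxp3 but gave 0 UMIs of it may lie among the members.

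Helper genes outside the rule were found in shares of the members well above those in B cells. Cd28, the receptor for costimulation by CD80 and CD86, was found in 67.9% of KO members (53.7 to 80.1) and 71.3% of WT members (64.8 to 77.2). Tnfsf8, which encodes CD30 ligand, was found in 35.8% of KO and 47.2% of WT members, at 405 CPM in KO and 426 CPM in WT members. Cd40lg, the ligand by which helper T cells stimulate B cells and dendritic cells, was found in 20.8% of KO and 25.5% of WT members. B cells, with a median of 3107.5 UMIs in the KO and 2318 in the WT library, gave the background: Cd28 had UMIs in 29.6% of KO and 14.6% of WT B cells, while Tnfsf8 and Cd40lg had UMIs in 0 of 186 KO B cells and in 1 and 0 of 267 WT B cells. The B cell gate took only barcodes without a CD3 UMI, so T cell RNA in this background was limited in advance. With each cell thinned to 1000 UMIs, Cd28 was found in 38.5% of KO and 41.3% of WT members, and Cd40lg in 9.62% of KO and 10.3% of WT members.

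Genes that regulatory T cells are known for were found as well. Ctla4, an inhibitory receptor, was found in 73.6% of KO and 70.4% of WT members, against 25.3% of KO and 14.6% of WT B cells and 89.7% of KO and 87.9% of WT Foxp3 T cells. Ikzf2, which encodes the transcription factor Helios, was found in 54.7% of KO (40.5 to 68.4) and 35.6% of WT members (29.3 to 42.4), and with cells thinned to 1000 UMIs in 32.7% of KO and 22.1% of WT members. Il2ra, the high-affinity interleukin-2 receptor chain, was found in 15 of 53 KO and 54 of 216 WT members. In the Foxp3 gate Il2ra reached 557 CPM in KO and 591 CPM in WT cells, against 236 CPM in KO and 170.3 CPM in WT members. Of the KO members with Ikzf2, 12 of 29 also held Il2ra, as did 3 of 24 without Ikzf2; in WT members these were 26 of 77 and 28 of 139. Cd40lg ran the other way: 5 of 29 KO members with Ikzf2 held it and 6 of 24 without, and 10 of 77 WT members with Ikzf2 and 45 of 139 without. The members are Cd4-positive T cells in which Foxp3 was not detected, and the share of regulatory T cells among them was not measured. Of 8 regulatory T cell markers measured, 1 was at least 2-fold higher in the library labelled KO (6.2% of all genes measured), Capg, with 87 UMIs in KO and 121 UMIs in WT members, and 0 were lower. The list had a median log2 ratio of KO over WT of 0.34.

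A few members looked mixed. The member with the most MHC class II transcripts in the library labelled KO held 44 UMIs of H2-Ab1, 68 of H2-Aa and 125 of Cd74 among 13413 UMIs, with 2 UMIs of Cd3d and 3 of Cd3g. This single cell accounted for 92.2% of the class II UMIs of KO members. In the library labelled WT 6 members with at least 20 class II UMIs each accounted for 86.8% of them. These genes belong to antigen-presenting cells. Scrublet, which scores barcodes by their likeness to simulated pairs of cells, placed 0 of 1 such KO and 3 of 6 such WT members among the highest scores of their library.

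Conventional CD4 T cells were a smaller share of all barcodes in the library labelled KO, and their share of T cells did not differ beyond counting error. They made up 1.21% of barcodes that passed the filter in the KO library (0.906 to 1.58) and 2.43% in the WT library (2.12 to 2.77), a ratio of 0.498 (0.361 to 0.675). Of Ptprc-positive barcodes, which carry the pan-leukocyte gene for CD45, they made up 3.53% in the KO library and 3.22% in the WT library (ratio 1.10, 0.779 to 1.51). Of CD3-positive cells they made up 19.1% in the KO library and 18.0% in the WT library (ratio 1.06, 0.772 to 1.44), counting only CD3-positive cells without Cd79a or C1qa and under the epithelial limit. Of all CD3-positive cells they made up 13.1% in the KO library and 15.3% in the WT library (ratio 0.853, 0.619 to 1.16). The other T cell gates lay below their WT share of all barcodes as well, at ratios of 0.598 for CD8, 0.418 for Foxp3 and 0.530 for gamma-delta T cells. Without members rich in transcripts of other cells, a change made only to the members and not to the other cells, the ratios became 0.876 of all barcodes, 1.94 of Ptprc-positive barcodes and 1.87 of CD3-positive cells, with 38 KO and 88 WT members left.

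**Figure D1:**
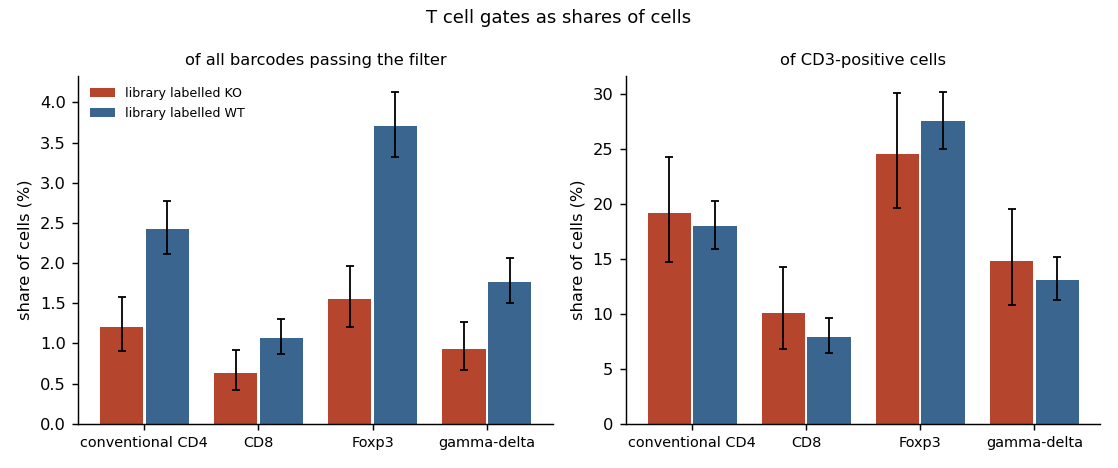
Shares of 4 T cell gates among all barcodes passing the filter (left) and among CD3-positive cells (right), in percent, for the libraries labelled KO and WT; bars are shares and whiskers are exact 95% intervals for counting error. Conventional CD4 T cells are 1.21% of KO and 2.43% of WT barcodes, but 19.1% of KO and 18.0% of WT CD3-positive cells.

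Activation and costimulation genes were widely found in both libraries. Icos, a costimulatory receptor of antigen-experienced T cells, was found in 77.4% of KO and 70.8% of WT members. Tnfrsf4, which encodes OX40, was found in 64.2% of KO and 60.6% of WT members, and Tnfrsf9, which encodes 4-1BB, in 29 of 53 KO and 108 of 216 WT members. Cd69, which holds T cells in tissue, was found in 73.6% of KO and 74.1% of WT members, but also in 76.9% of KO and 56.6% of WT B cells, which express it themselves. Genes of recirculating cells were found in fewer members. Ccr7, the receptor that leads T cells into lymph nodes, was found in 17.0% of KO and 21.3% of WT members. B cells, many of which recirculate too, held Ccr7 in 41.4% of KO and 43.1% of WT cells, so the share of the members did not lie above this level. Tcf7, a transcription factor of naive and memory cells, was found in 28.3% of KO and 39.4% of WT members.

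Cytokine transcripts of the Th17 and Th1 kinds were found in minorities of the members, and those of the Th2 and follicular helper kinds hardly at all. Il17a was found in 8 of 53 KO members (15.1%, 6.75 to 27.6) and 27 of 216 WT members (12.5%, 8.40 to 17.7), against 0 of 186 KO and 2 of 267 WT B cells. Its UMIs sat in few cells: 5 members held 94.3% of them in the KO library and 82.9% in the WT library. Il22, a cytokine that acts on epithelium, was found in 2 KO members (3.77%, 0.460 to 13.0) and 27 WT members (12.5%, 8.40 to 17.7), and Il17f in 1 KO and 16 WT members. Ifng was found in 7 KO members (13.2%) and 32 WT members (14.8%), against 0 KO and 2 WT B cells. Il4 and Il13 had no UMI in KO members, which allows a share of up to 5.66%, and were found in 4 and 1 of the 216 WT members. Il21, a cytokine of follicular helper cells, was found in 0 KO and 3 WT members. Gata3, the Th2 transcription factor that regulatory T cells of the gut also express, was found in 39.6% of KO and 32.9% of WT members.

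The cytokines overlapped in part. Of Il17a-positive members, 1 of 8 KO and 11 of 27 WT cells also held Il22, while 1 of 45 KO and 16 of 189 WT members without Il17a did. Il17f was found in 1 of 8 KO and 10 of 27 WT Il17a-positive members, against 0 of 45 KO and 6 of 189 WT members without Il17a. Ifng was found in 2 of 8 KO and 3 of 27 WT Il17a-positive members, against 5 of 45 KO and 29 of 189 WT members without it. In the library labelled WT, Il17f and Il22 were thus found more often in members with Il17a than in those without, and Ifng was not, while the 8 Il17a-positive KO members were too few to show a pattern.

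**Figure D2:**
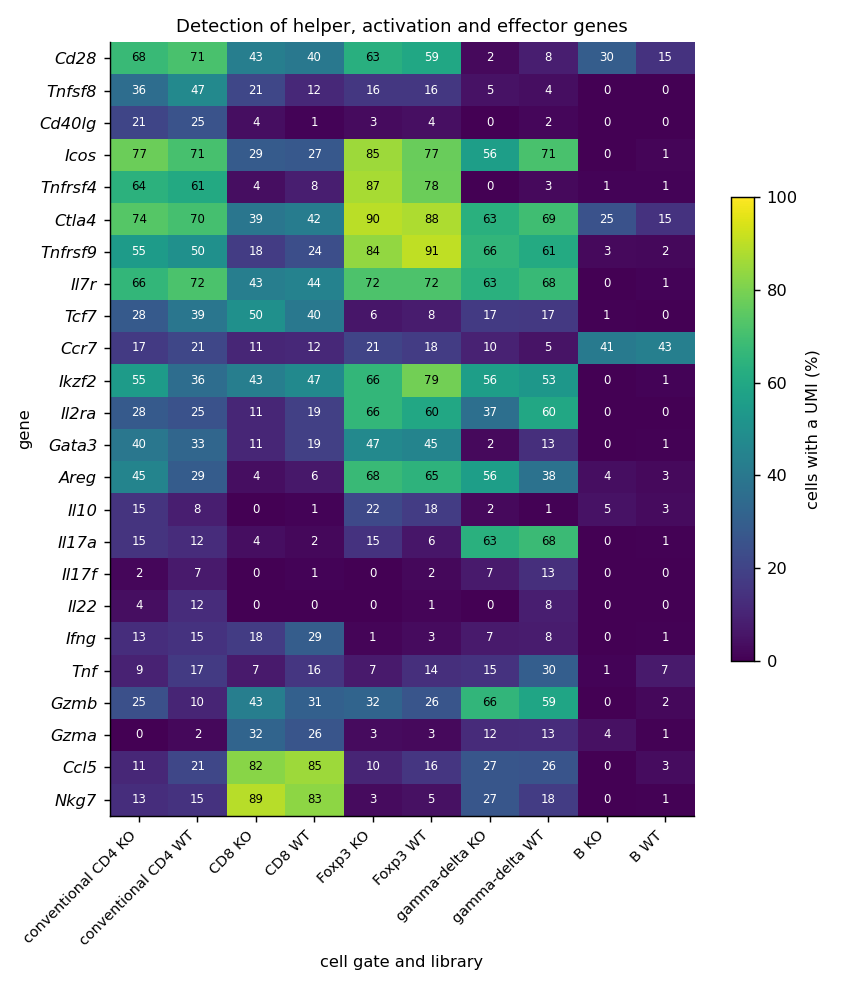
Share of cells with at least 1 UMI, in percent and by colour, of 24 genes (rows) in 4 T cell gates and in B cells, each for the KO and the WT library (columns). Cd40lg was found in 20.8% of KO and 25.5% of WT members, and Ccl5 in 11.3% of KO and 21.3% of WT members, while CD8 T cells hold Ccl5 in most cells of both libraries.

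Within each library the members could be set beside the other T cells. The CD8 gate held 28 KO and 95 WT cells. The Foxp3 gate held 68 KO and 330 WT cells, and the gamma-delta gate 41 KO and 157 WT cells. Against CD8 T cells, 60 of 2498 genes (2.4%) were at least 2-fold higher in both libraries and 34 (1.36%) at least 2-fold lower. These cells were separated by single transcripts of the same count matrix, so the contrasts are a description with no test. Il17a stood at 989 CPM in KO members, against 8.09 CPM in KO CD8 T cells (1 UMI, ratio 122, 21.7 to 4849), and at 566 CPM in WT members, against 10.7 CPM in WT CD8 T cells. Maf, a transcription factor of cytokine-making CD4 T cells, stood at 615 CPM in KO members, against 8.09 CPM in KO CD8 T cells (1 UMI, ratio 75.9, 13.4 to 3024), and at 705 CPM in WT members, against 85.4 CPM in WT CD8 T cells. Also among the genes higher in members of both libraries were Tnfsf8, Tnfrsf4, Icos and Ctla4, the cytokine genes Il10, Il22 and Areg, and the receptor genes Ccr2 and Il18r1. Of the 9 Th17 genes measured, 6 were higher, and of 13 activation genes, 6.

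Cytotoxic genes went the other way. Of 8 measured, 7 were at least 2-fold lower in members than in CD8 T cells of both libraries. Gzma, which encodes granzyme A, had no UMI in KO members, against 5195 CPM in KO CD8 T cells, and stood at 16.1 CPM in WT members, against 1599 CPM in WT CD8 T cells. Ccl5, a chemokine of cytotoxic and memory T cells, stood at 1726 CPM in KO members, against 8117 CPM in KO CD8 T cells, and at 581 CPM in WT members, against 6109 CPM in WT CD8 T cells. Xcl1, Cd7, Cd160, Klrd1 and Nkg7, genes of CD8 T cells and natural killer cells, were lower in members of both libraries too. Gzmb was not among them, at 1111 CPM in KO members, against 1060 CPM in KO CD8 T cells, and 150.2 CPM in WT members, against 611 CPM in WT CD8 T cells.

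The Foxp3 gate gave the smallest shares of genes past 2-fold. Of 3960 genes, 12 (0.303%) were at least 2-fold higher in members of both libraries, and 34 (0.859%) at least 2-fold lower. Higher were Il22, Ccl5, Nkg7, Tnf and Tnfsf8, and Bcl2 and Tcf7, genes of cell survival and of the memory state. A single KO member held 92.6% of the Il22, 95.8% of the Ccl5 and 82.0% of the Nkg7 UMIs of KO members. Without the richest cell for each gene, Ccl5 stood at 73.9 CPM in KO members, against 38.5 CPM in KO Foxp3 T cells (ratio 1.92), and Nkg7 at 47.5 CPM in KO members, against 53.3 CPM in KO Foxp3 T cells (ratio 0.890), so neither was past 2-fold in the KO library. Il22 was then left with 2 UMIs in KO members and 0 in KO Foxp3 T cells, too few for a fold. Tcf7 stood at 149 CPM in KO members, against 11.8 CPM in KO Foxp3 T cells, and at 189 CPM in WT members, against 32.5 CPM in WT Foxp3 T cells. Bcl2 stood at 118 CPM in KO members, against 17.8 CPM in KO Foxp3 T cells, and at 139 CPM in WT members, against 16.3 CPM in WT Foxp3 T cells. Lower in members were Il2ra, Il1rl1, which encodes the interleukin-33 receptor, Klrg1, Itgae and Ccr6, genes known from tissue regulatory T cells. They were picked from the 34 lower genes. On the fixed list of regulatory T cell markers, 1 of 8 measured was at least 2-fold lower in members of both libraries and 0 were higher. Il1rl1 stood at 71.7 CPM in KO members, against 246 CPM in KO Foxp3 T cells, and at 53.6 CPM in WT members, against 269 CPM in WT Foxp3 T cells.

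Against gamma-delta T cells, 69 of 2914 genes (2.37%) were at least 2-fold higher in members of both libraries and 66 (2.26%) at least 2-fold lower. The higher ones included Cd28, Cd5, Cd6, Cd2, Tnfrsf4, Il10, Penk and Ccr7. Cd5, which dampens T cell receptor signals, stood at 220.2 CPM in KO members, against 0 in KO gamma-delta T cells, and at 198 CPM in WT members, against 18.2 CPM in WT gamma-delta T cells. Lower were Gzma, Xcl1, Scart1 and Blk, and Il17a, which reached 4110 CPM in KO and 3968 CPM in WT gamma-delta T cells. Of 11 Th17 genes measured, 5 were lower in members and 1, Ccl20, was higher.

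Between the libraries, 5744 genes had at least 20 UMIs summed over all members. Of these, 356 (6.2%) were at least 2-fold higher in the library labelled KO and 933 (16.2%) at least 2-fold lower, around a median log2 ratio of KO over WT of -0.13. Low genes made up much of both counts: of genes with at least 50 UMIs, 121 were higher and 372 lower. Counts of list members below are to be read against 6.2% and 16.2%.

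**Figure D3:**
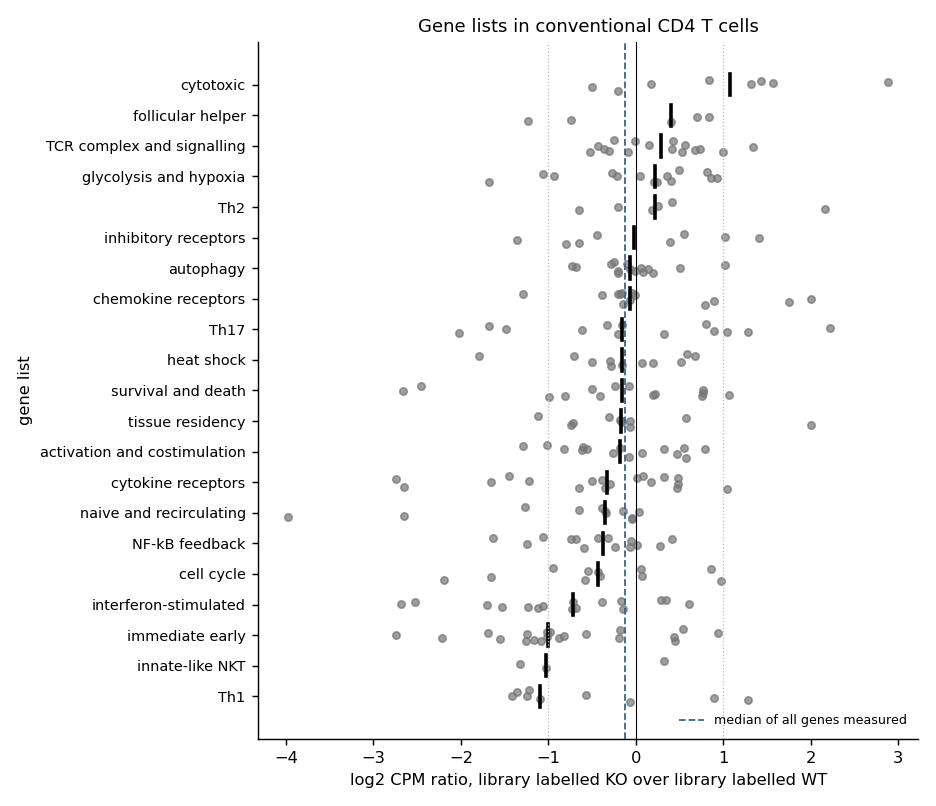
Log2 ratio of CPM, library labelled KO over library labelled WT, for the measured genes of 21 gene lists in conventional CD4 T cells; dots are genes, black bars list medians, the dashed line the median of all 5744 genes (-0.13), and dotted lines mark 2-fold. Th1, natural killer T-like (innate-like NKT), immediate early and interferon-stimulated lists have the lowest medians and the cytotoxic list the highest.

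Immediate early genes, transcribed within minutes of a stimulus to a cell, leaned lower in KO members. Of 20 measured, 10 were at least 2-fold lower and 0 higher, so that the median log2 ratio lay at the 2-fold limit. Fos, a subunit of the transcription factor AP-1, had 81 UMIs in KO members (415 CPM, 329 to 516), against 1441 UMIs in WT members (1932 CPM, 1834 to 2035). Its ratio was 0.215 (0.169 to 0.269). Fosl2, another AP-1 gene, stood at 271 CPM in KO members (203 to 355) and 794 CPM in WT members (731 to 861), a ratio of 0.342 (0.253 to 0.453). Zfp36, which encodes a protein that destabilises cytokine mRNAs, stood at 246 CPM in KO and 793 CPM in WT members (ratio 0.310, 0.226 to 0.417). Dusp1, a phosphatase gene that dampens MAP kinase signals, stood at 686 CPM in KO and 1636 CPM in WT members (ratio 0.419, 0.348 to 0.502).

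The list did not move as a block. Nr4a1, a nuclear receptor gene that follows T cell receptor signals, stood at 420.0 CPM in KO and 852 CPM in WT members (ratio 0.493, 0.387 to 0.622), and Egr1 at 179 CPM in KO and 425 CPM in WT members (ratio 0.422). Junb, at 3488 CPM in KO and 3963 CPM in WT members, had a ratio of 0.880 (0.809 to 0.957). Jund, which many cells express without a stimulus, was higher, at 3324 CPM in KO and 1730.0 CPM in WT members (ratio 1.92, 1.75 to 2.11), and Ier2 and Ier5 had ratios of 1.35 and 1.45.

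Summed over the list the difference was smaller than for the 10 lower genes, at 12595 CPM in KO and 17024 CPM in WT members. Junb and Jund had 681 and 649 of the 2459 KO UMIs and 2955 and 1290 of the 12694 WT UMIs. Per cell, the 20 genes summed to 34.5 to 359 UMIs per 10000 in KO members (median 118) and to 17.5 to 1124 in WT members (median 147). The ranges overlapped widely, with the lower quartiles at 82.1 in KO and 91.5 in WT members and the upper quartiles at 173 in KO and 211 in WT members. Other T cells had the same direction, at medians of 87.5 in KO and 136 in WT CD8 T cells, 95.8 in KO and 165 in WT Foxp3 T cells, and 118 in KO and 189 in WT gamma-delta T cells. At least 2-fold lower in the KO library were 8 of 19 of these genes in CD8 T cells (15.2% of all genes tested there), 9 of 20 in Foxp3 T cells (14.2%) and 8 of 19 in gamma-delta T cells (14.5%). None of them was at least 2-fold higher in these gates, where 5.79%, 6.8% and 6.06% of all genes were. The ratio of Fos was 0.380 in CD8, 0.630 in Foxp3 and 0.236 in gamma-delta T cells, and that of Zfp36 was 0.279, 0.431 and 0.335. These genes are also known to respond to the dissociation of tissue. Fos stood at 601 CPM in KO and 3606 CPM in WT neutrophils. Without members rich in transcripts of other cells, the median log2 ratio of the list was -0.54 and the ratio of Fos 0.288. Ier3, one of the 10 lower genes, had a ratio of 2.11 without members very rich in such transcripts (at least 50 UMIs per 10000). The part of sample handling in the difference was not tested.

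**Figure D4:**
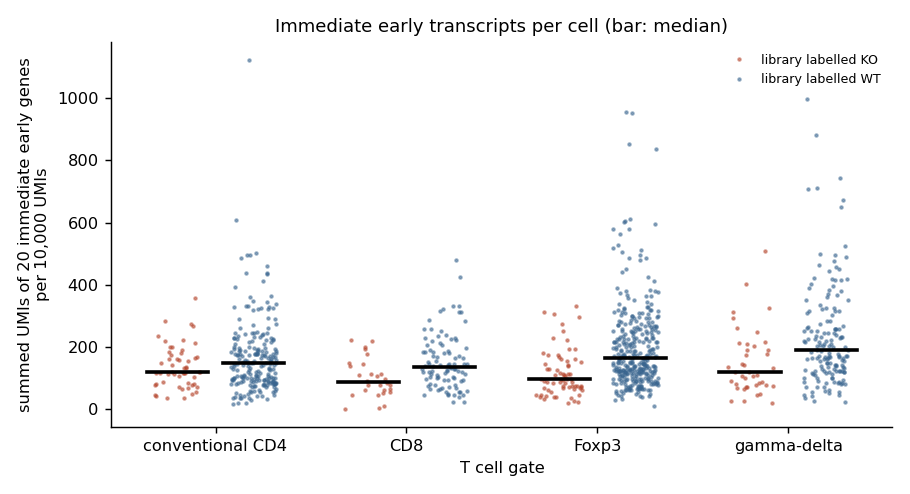
Summed UMIs of 20 immediate early genes per 10000 UMIs in each cell of 4 T cell gates, for the libraries labelled KO and WT; dots are cells and bars medians. Medians of conventional CD4 T cells are 118 in the KO and 147 in the WT library, and all 4 gates have the lower median in the KO library.

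Many of these genes share a letter pattern before their start. The 5 letters TGACG, the core of the element bound by CREB and ATF factors, were searched on both strands of promoters from 250 bases before to 50 bases after the start (RefSeq, build GRCm38.p6, which is not the build of the counts). Of 17 immediate early genes found in that table, 11 held the letters, against 23.0% of 27025 gene symbols. The letters did not follow the difference between the libraries: 5 of 8 genes at least 2-fold lower in KO members held them, and 6 of 9 others did too. A match is a description of letters and not a bound site. The examples show lower genes (Fos, Fosb, Nr4a1, Dusp1) beside Junb and Btg2, whose ratios were 0.880 and 0.876, each written 5′ to 3′ on the strand of the gene, with 1 match in capitals (CGTCA is TGACG on the other strand). In Dusp1 and Btg2 the capitals overlap a TGACG on the strand of the gene. In the order shown, the windows held 2, 1, 4, 3, 1 and 2 matches.
Fos, chr12:85473804-85473848, plus strand: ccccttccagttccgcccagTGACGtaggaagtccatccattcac
Fosb, chr7:19310081-19310125, minus strand: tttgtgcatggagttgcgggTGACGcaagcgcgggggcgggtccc
Nr4a1, chr15:101266786-101266830, plus strand: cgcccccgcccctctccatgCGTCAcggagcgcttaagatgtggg
Dusp1, chr17:26508588-26508632, minus strand: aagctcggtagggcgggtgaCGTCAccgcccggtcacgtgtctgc
Junb, chr8:84978830-84978874, minus strand: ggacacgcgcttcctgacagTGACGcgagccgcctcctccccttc
Btg2, chr1:134079294-134079338, minus strand: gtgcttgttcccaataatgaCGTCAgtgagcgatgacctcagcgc

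Th1 genes leaned lower in KO members. Of 9 measured, 5 were at least 2-fold lower and 1 higher, with a median log2 ratio of -1.10. Ifng had 9 UMIs in 7 KO members (46.1 CPM, 21.1 to 87.5) and 92 UMIs in 32 WT members (123 CPM, 99.5 to 151), a ratio of 0.374 (0.166 to 0.741). As the share of members with Ifng was 13.2% in the KO and 14.8% in the WT library, the positive cells held fewer UMIs each in the KO library. With cells thinned to 1000 UMIs, 1.92% of KO and 8.45% of WT members held it. Bhlhe40, a transcription factor needed for cytokine production in Th1 cells, stood at 584 CPM in KO and 1251 CPM in WT members (ratio 0.467, 0.381 to 0.567). Il18r1 and Il18rap, the chains of the interleukin-18 receptor, had ratios of 0.428 (0.281 to 0.629) and 0.388 (0.137 to 0.897). Tnf stood at 76.8 CPM in KO and 182 CPM in WT members, with 47.8% of its WT UMIs in 1 cell. Hopx, which encodes a small homeodomain protein of effector T cells, was higher, at 507 CPM in KO and 209 CPM in WT members (ratio 2.42, 1.86 to 3.14). The median of the Th1 list was -0.89 in CD8, -0.28 in Foxp3 and -0.94 in gamma-delta T cells.

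Interferon-stimulated genes leaned the same way, with 7 of 16 at least 2-fold lower in KO members, 0 higher and a median log2 ratio of -0.72. Irf1, a transcription factor induced by interferons, stood at 56.3 CPM in KO members (28.1 to 101) and 184 CPM in WT members (154 to 217). Ifit1 had 2 UMIs in KO and 49 UMIs in WT members (ratio 0.156, 0.0184 to 0.594). Ifi27l2a, the most abundant of the list, stood at 804 CPM in KO and 890.5 CPM in WT members (ratio 0.903, 0.754 to 1.08). With each cell thinned to 1000 UMIs the list median was -0.05.

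Th17 genes split. Of 13 measured, 3 were at least 2-fold higher and 3 at least 2-fold lower in KO members, with a median log2 ratio of -0.15. Il22 had 27 UMIs in KO members, 92.6% of them in 1 cell (138 CPM in all, 91.1 to 201), and 331 UMIs in WT members (444 CPM, 397 to 494), a ratio of 0.312 (0.202 to 0.462). Il17f stood at 46.1 CPM in KO and 129 CPM in WT members (ratio 0.358), with 72.9% of its WT UMIs in 1 cell. Il17a stood at 989 CPM in KO and 566 CPM in WT members (ratio 1.75, 1.47 to 2.08), but at a ratio of 0.390 without members rich in transcripts of other cells, 0.584 without the 5 richest cells of each library and 1.06 with the highest Scrublet scores removed. Ccl20, a chemokine that draws Ccr6-positive cells, had 73 UMIs in KO and 60 UMIs in WT members. A single KO member held 93.2% of the KO UMIs of Ccl20, and without members rich in transcripts of other cells the ratio of Ccl20 was 0.242. That KO member was also the richest in Il17a, with 69 UMIs of it, 0 of S100a8 and Mcpt1 and 1 of H2-Ab1. The markers of that filter include Il1r2, and which markers took out this member was not tested. The others past 2-fold were Il23r and Ltb4r1, receptors for interleukin-23 and leukotriene B4, with 7 and 21 UMIs in KO and 13 and 33 UMIs in WT members, and Il1r1, with 2 UMIs in KO and 31 UMIs in WT members (ratio 0.246, 0.0286 to 0.968). Transcription factors of these cells were within 2-fold: Rora stood at 697 CPM in KO and 558 CPM in WT members, and Maf at 615 CPM in KO and 705 CPM in WT members.

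Areg was the clearest of the secreted factors that were higher in KO members. It encodes amphiregulin, a ligand of the epidermal growth factor receptor that T cells release in tissue repair. Areg had 477 UMIs in 24 KO members (2443 CPM, 2229 to 2672) and 408 UMIs in 63 WT members (547 CPM, 495 to 603), a ratio of 4.46 (3.90 to 5.11). It was found in 45.3% of KO members (31.6 to 59.5) and 29.2% of WT members (23.2 to 35.7), against 3.76% of KO and 2.62% of WT B cells. With cells thinned to 1000 UMIs these shares were 40.4% in KO and 20.2% in WT members. The richest 5 members held 75.3% of the KO and 39.2% of the WT UMIs, and without the 5 richest cells of each library the ratio was 1.82. In Foxp3 T cells Areg stood at 2598 CPM in KO and 1373 CPM in WT cells, and in gamma-delta T cells at 5252 CPM in KO and 2573 CPM in WT cells. Among KO members, 15 of 29 with Ikzf2 held Areg and 9 of 24 without. Among WT members these were 33 of 77 and 30 of 139. The part of regulatory T cells with undetected Foxp3 in the Areg difference was not tested. No other Th2 gene of the 6 measured was past 2-fold, and Gata3 stood at 189.5 CPM in KO and 159.6 CPM in WT members.

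Cytotoxic genes had the highest list median, 1.07, with 4 of 8 at least 2-fold higher and 0 lower in KO members. This median was 0.14 with cells thinned to 1000 UMIs, 2.22 with at least 2 Cd4 UMIs per cell and 1.67 without members rich in transcripts of other cells. Of the higher ones Gzmb, Ccl5 and Nkg7 rested largely on single cells, while Cst7, an inhibitor of the proteases that activate granzymes, had 13 UMIs in 10 KO and 20 UMIs in 15 WT members. Gzmb, which encodes granzyme B, had 217 UMIs in 13 KO members (1111 CPM, 968 to 1269.6) and 112 UMIs in 22 WT members (150.2 CPM, 124 to 181), a ratio of 7.40 (5.86 to 9.38). A single KO member held 54.8% of the KO UMIs, and without the 5 richest cells of each library the ratio was 1.49. Ccl5 had 337 UMIs in 6 KO members and 433 UMIs in 46 WT members. A single KO member with 323 UMIs held 95.8% of the KO UMIs, together with 41 of the 50 UMIs of Nkg7 in KO members. Without the 5 richest cells of each library the ratio was 0.0230 for Ccl5, against 2.97 with them, and 0.170 for Nkg7, against 2.69. Because 53 KO members stand against 216 WT members, leaving out 5 cells weighs more on the KO library. For Ccl5 it took 5 of the 6 KO members with a UMI, so a low ratio was bound to follow.

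Chemokine receptors included 2 genes at least 2-fold higher and 1 lower among 13, at a median of -0.07. Cxcr6, a receptor of T cells that settle in tissue and tumours, stood at 343 CPM in KO members (266 to 436) and 85.8 CPM in WT members (66.1 to 109.6), a ratio of 4.00 (2.80 to 5.72). It was found in 37.7% of KO and 21.8% of WT members, and its ratio was 4.24 in CD8, 2.84 in Foxp3 and 1.60 in gamma-delta T cells. Ccr2, the receptor of monocyte chemoattractant proteins, stood at 374 CPM in KO and 111 CPM in WT members (ratio 3.36, 2.42 to 4.66), with a ratio of 2.07 without the 5 richest cells. Cxcr4, the receptor of CXCL12, was lower, at 230.5 CPM in KO and 563 CPM in WT members (ratio 0.409, 0.294 to 0.557), and its ratio in the other T cell gates was 0.181 to 0.362.

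Of 11 naive and recirculating genes 0 were at least 2-fold higher in KO members, at a median of -0.35. Among the lower ones, Il6ra, a chain of the interleukin-6 receptor, had 1 UMI in KO and 24 UMIs in WT members (ratio 0.159, 0.00387 to 0.976). Foxp1, a transcription factor that keeps T cells quiescent, stood at 82.0 CPM in KO and 197 CPM in WT members (ratio 0.416, 0.232 to 0.698). Ccr7 and Klf2, which keep T cells in circulation, had ratios of 0.970 (0.636 to 1.44) and 0.971 (0.813 to 1.15). Of the Ccr7 UMIs, 12 of 32 in KO members lay in the 1 member rich in MHC class II transcripts. In WT members 26 of 126 lay in the 6 such members.

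T cell receptor and costimulation genes stayed closer together. Of 16 genes of the receptor complex and its signalling, 1 was at least 2-fold higher and 0 lower, at a median of 0.28, and the gene past 2-fold, Cd3g, belonged to the gate. Of 15 activation genes, 0 were higher and 2 lower: Irf4, a transcription factor induced by receptor signals, at 97.3 CPM in KO and 239 CPM in WT members, and Nr4a1. Tnfrsf4 had a ratio of 1.73 (1.40 to 2.13), Icos of 0.880 (0.709 to 1.08) and Cd28 of 0.937 (0.739 to 1.18). Among 8 inhibitory receptor genes, Havcr2, which encodes TIM-3, stood at 138 CPM in KO and 52.3 CPM in WT members (ratio 2.64, 1.56 to 4.43), and Pdcd1, which encodes PD-1, at 92.2 CPM in KO and 45.6 CPM in WT members (ratio 2.02, 1.08 to 3.68). Entpd1, which encodes the ectonucleotidase CD39, was lower at 25.6 CPM in KO and 65.7 CPM in WT members. The ratio of Pdcd1 was 0.812 without members that hold Ikzf2, and that of Entpd1 was 1.13 without members rich in transcripts of other cells.

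Among 14 survival genes, Bcl2l11 stood apart. It encodes BIM, which promotes the death of T cells after a response, and had 8 UMIs in 7 KO members (41.0 CPM, 17.7 to 80.7) and 193 UMIs in 78 WT members (259 CPM, 224 to 298). Its ratio was 0.158 (0.0674 to 0.318) in members and 0.407, 0.244 and 0.291 in CD8, Foxp3 and gamma-delta T cells. Bax, which encodes a pore-forming protein of the death pathway that BIM triggers, went the other way, at 256 CPM in KO and 122 CPM in WT members (ratio 2.10, lower bound 1.46). The third past 2-fold was Pim2, a survival kinase gene with 1 UMI in KO and 21 UMIs in WT members (ratio 0.182, 0.00440 to 1.13). Bcl2 stood at 118 CPM in KO and 139 CPM in WT members.

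Metabolic and autophagy genes gave few differences. Of 14 genes of glycolysis and hypoxia, 2 were at least 2-fold lower and 0 higher, at a median of 0.22. The glucose transporter gene Slc2a1 had 4 UMIs in KO and 49 UMIs in WT members, and the hexokinase gene Hk2 12 UMIs in KO and 96 UMIs in WT members, while Eno1, an enzyme of glycolysis, stood at 323 CPM in KO and 170.3 CPM in WT members (ratio 1.89, 1.38 to 2.58). Of 15 autophagy genes, 1 was at least 2-fold higher and 0 lower, at a median of -0.07. The higher one was Tax1bp1, an autophagy receptor gene, at 471 CPM in KO and 232 CPM in WT members (ratio 2.03, 1.56 to 2.63). Sqstm1, which is named in the title of the study and encodes the autophagy receptor p62, stood at 138 CPM in KO members (91.1 to 201) and 223 CPM in WT members (190.0 to 259), a ratio of 0.621 (0.397 to 0.937). Of 11 heat shock genes, only Hspa1b was past 2-fold, at 143 CPM in KO and 499 CPM in WT members (ratio 0.287, 0.188 to 0.422), with Hspa1a at a ratio of 0.707. Of 14 genes of NF-kB feedback 3 were lower and 0 higher, at a median of -0.37, namely Nfkbid at 102 CPM in KO and 243 CPM in WT members, Bcl3 at 30.7 CPM in KO and 95.2 CPM in WT members (though at a ratio of 1.09 with cells thinned to 1000 UMIs), and Nfkbib at 25.6 CPM in KO and 53.6 CPM in WT members. Of 11 cell cycle genes, Birc5 and Ube2c were lower, each with 2 UMIs in KO and with 24 and 35 UMIs in WT members, and 0 higher.

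Other lists held receptors, residency genes and markers of other cells. Of 18 cytokine receptor genes, 5 were at least 2-fold lower and 1 higher, at a median of -0.33. Besides Il18r1, Il6ra and the higher Il23r these were Il10ra, a chain of the interleukin-10 receptor, at 25.6 CPM in KO and 69.7 CPM in WT members, Il17ra, with 2 UMIs in KO and 51 UMIs in WT members (ratio 0.150, 0.0177 to 0.569), and Tgfbr1, with 2 UMIs in KO and 24 UMIs in WT members. Of 11 tissue residency genes, Cxcr6 was the 1 higher and Itgae the 1 lower, at 35.9 CPM in KO and 77.8 CPM in WT members (ratio 0.461, 0.177 to 1.01). Without members rich in transcripts of other cells, Itgae had a ratio of 1.03. Of 5 follicular helper genes, only Bcl6 was past 2-fold, with 2 UMIs in KO and 18 UMIs in WT members. Only 3 genes of the natural killer T-like list were measured, of which Fcer1g and Tyrobp, expressed mainly by myeloid and natural killer cells, were lower at ratios of 0.490 and 0.400. The median of this list was -1.03, but 0.45 without members very rich in transcripts of other cells. Macrophage markers gave 2 of 4 lower, Ly6c2 and Lyz2, and epithelial markers 1 of 6 higher (Krt18) and 1 lower (Cldn7). Epcam, Krt8 and Krt18 are gate genes whose sum the rule limits, so this count is a description only. Of dendritic cell and plasma cell markers 1 of 5 and 1 of 4 were lower, Fscn1 and Sdc1. Of gamma-delta T cell and endothelial markers 1 each was measured, and of those of CD8 T and natural killer cells and of red blood cells 0.

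Genes were also ranked by how far their interval lay beyond a ratio of 1, among those found in at least 10% of the members of the higher library and at no less than 25% of their highest level in the B, macrophage, neutrophil and epithelial gates. Neutrophil genes such as S100a8 and S100a9 did not pass the second condition. Apart from genes described above, the higher ones in KO members included Fabp5, which encodes a fatty acid-binding protein, at 2382 CPM in KO and 389 CPM in WT members (ratio 6.12, 5.28 to 7.12). The Gzmb-richest KO member held 229 of its 465 KO UMIs, and the member rich in MHC class II transcripts held 123. Without the 5 richest cells of each library the ratio of Fabp5 was 1.14. Penk, which encodes the opioid precursor proenkephalin and is known from regulatory T cells, stood at 553 CPM in KO and 133 CPM in WT members (ratio 4.17, 3.14 to 5.53). Without members that hold Ikzf2, Penk had no UMI in 24 KO members and 26 UMIs in 139 WT members, a ratio of at most 0.656 at the floor of 3 UMIs. Ermn, Gas2 and Pcsk1 had 35, 22 and 23 UMIs in KO members, against 10, 12 and 13 UMIs in WT members. Mdh2, a mitochondrial enzyme, had 50 of its 96 KO UMIs in the member rich in MHC class II transcripts. Lars2 and Mir6236, like Rn18s-rs5 transcripts whose reads can come from ribosomal RNA, had ratios of 6.79 and 7.54.

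The lower ones in KO members included the mast cell proteases Mcpt1 and Mcpt2, with 7 and 10 UMIs in KO members and 286 and 277 UMIs in WT members. Their WT UMIs lay to 53.1% and 55.6% in 1 cell, and T cells are not known to make these proteases. Neat1, a nuclear long noncoding RNA, stood at 118 CPM in KO members (74.7 to 177) and 451 CPM in WT members (404 to 501), and Kcnq1ot1, another, at 10.2 CPM in KO and 107 CPM in WT members. Zfas1, a noncoding host of small nucleolar RNAs, stood at 61.5 CPM in KO and 251 CPM in WT members (ratio 0.245, 0.124 to 0.438). Lgals9, which encodes galectin-9, a ligand of TIM-3, had 1 UMI in KO and 58 UMIs in WT members (ratio 0.0658, 0.00164 to 0.382). Myadm, Fchsd2 and Gclm, the last encoding a subunit of the enzyme that starts glutathione synthesis, had no UMI in KO members and 53, 46 and 36 UMIs in WT members. At a floor of 3 UMIs for the KO library they were at least 4.63-fold, 4.01-fold and 3.14-fold lower.

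**Figure D5:**
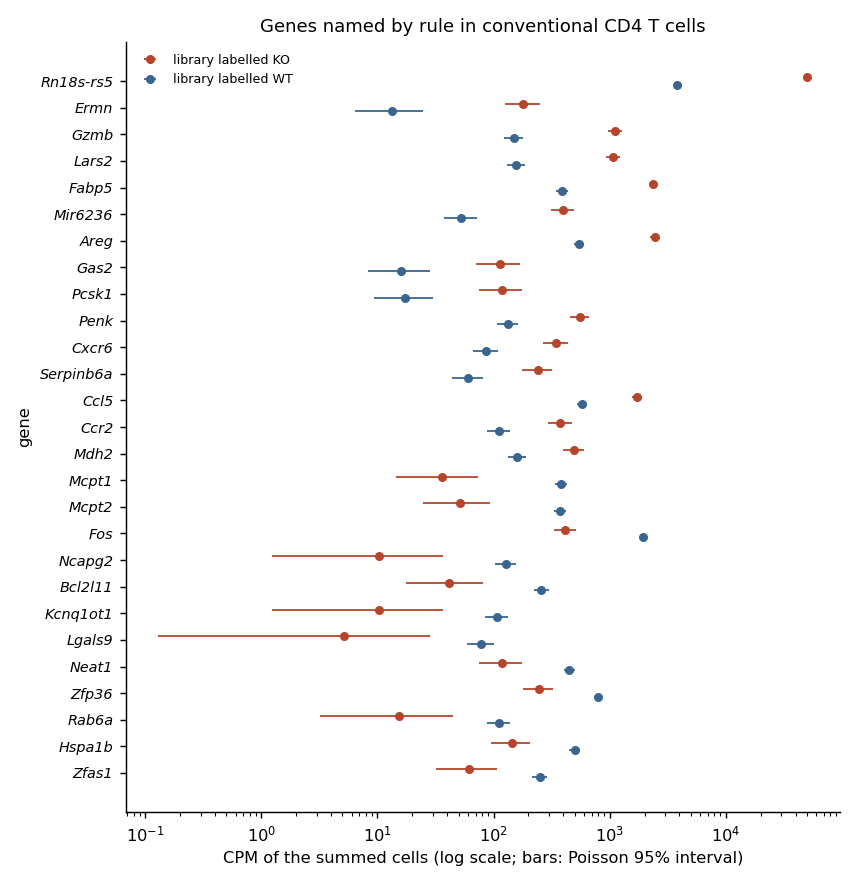
CPM (log scale) of the summed conventional CD4 T cells, KO library and WT library, for the genes ranked highest in either direction and found in both libraries; points are CPM and bars exact Poisson 95% intervals for counting error. Rn18s-rs5 lies at 50179 CPM in KO and 3797 CPM in WT members, Gzmb at 1111 and 150.2 CPM, and Fos at 415 and 1932 CPM.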

How the data were processed

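The sources describe 2 single-cell libraries of colon tumor tissue. The authors deposited raw UMI counts per gene and barcode, written by Cell Ranger 7.2.0 per the file headers; GRCm39 is the build per the submitters' processing notes. The protocol in the labels describes RNA from lysed tissue, so the capture chemistry is not known here. Barcodes were kept from 200 genes upward where mitochondrial UMIs stayed below 20%, then gated as described, and counts were summed over the gated cells of each library and scaled to CPM. Genes with at least 20 UMIs over both libraries were called measured, and calls are ratios of at least 2-fold. The 34 lists (392 genes) and the members were chosen with earlier results of these data known. Intervals at 95% were Clopper-Pearson for shares, exact Poisson for CPM and conditional binomial for ratios, and cover counting error only. A count of 0 allows a share of up to 3 counts of the total. Named genes were the 15 higher and 15 lower genes with the interval bound farthest beyond a ratio of 1, with UMIs in at least 10% of cells of the higher library and a CPM of at least 25% of the highest of the B, macrophage, neutrophil and epithelial gates there. Mitochondrial, ribosomal protein, hemoglobin, immunoglobulin, T cell receptor, sex-linked, predicted and gate genes were left out of that rule. Other genes named were chosen from the lists after their values were seen. Scrublet's automatic threshold marked 0.0456% of KO and 0% of WT barcodes, so doublets could not be called and none were removed from the main values. As an alternative the highest scores, 154 KO (3.51%) and 633 WT barcodes (7.12%), were removed, which took 1 KO and 26 WT members. Thinning to 1000 UMIs left out 1 KO and 3 WT members. Promoters are from RefSeq, GRCm38.p6. The ratio and its interval were checked on counts simulated independently for each gene. That simulation leaves out the clumping of UMIs in single cells, so it checks the calculation and not how well the intervals hold here. Python 3.11.15, numpy 2.4.6, scipy 1.17.1, pandas 2.3.3, scanpy 1.11.5 and matplotlib 3.10.9 were used. Results for 1 gene of the lists are not reported here.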

Additional observations from a re-analysis of the deposited data

Results flagged for a closer look

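For 5 genes the ratio of KO over WT lay at least 2-fold on one side in conventional CD4 T cells and at least 2-fold on the other in another T cell gate. With 1 library per genotype these differences were not tested. Pdcd1 had a ratio of 2.02 in conventional CD4 T cells (18 KO and 34 WT UMIs), against 0.474 in Foxp3 T cells (16 KO and 123 WT UMIs). Ccl5 had a ratio of 2.97 in conventional CD4 T cells, from 337 KO and 433 WT UMIs, against 0.259 in Foxp3 T cells, from 13 KO and 183 WT UMIs, and a single KO cell held 95.8% of the KO UMIs of conventional CD4 T cells. Areg had a ratio of 4.46 in conventional CD4 T cells and of 0.0819 in CD8 T cells, the last from 1 KO and 37 WT UMIs. Fabp5 had a ratio of 6.12 in conventional CD4 T cells and of 0.255 in CD8 T cells, the last from 11 KO and 131 WT UMIs. Fscn1, a gene of migrating dendritic cells, had 0 KO and 34 WT UMIs in conventional CD4 T cells, a ratio of at most 0.337 at the floor of 3 UMIs, against 12.1 in Foxp3 T cells, from 10 KO and 3 WT UMIs.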

How the results depend on the processing

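No paired analysis was possible because each genotype had 1 library, and for the same reason no library could be left out. Of 1891 gene ratios under alternatives, for 136 genes, 1610 stayed within the range counted as unmoved, 269 moved and 12 turned direction, counting as turned only genes at least 2-fold apart in the main value. In 12 further cases KO members had 0 UMIs and the floor of 3 UMIs there reached the WT CPM, so no fold was given. Of 367 list medians 339 stayed, 27 moved and 1 turned, counting as turned only lists with a main median at or past the 2-fold limit. The Th17 median, -0.15 in the main values, ranged from -0.78 to 0.14 and was not counted as turned. The median of the immediate early list stayed under all 14 alternatives (-1.16 to -0.54), and the Th1 median ranged from -1.28 to -0.83. With at least 2 Cd4 UMIs, 574 genes were lower, the cytotoxic median was 2.22, and Gbp2 (1.06) and Oasl2 (1.41) turned. With cells thinned to 1000 UMIs, 155 genes were higher and 370 lower, the cytotoxic median was 0.14 and the interferon median -0.053, and Bcl3 turned (1.09). With at least 50 UMIs per gene, where fewer genes were tested, 121 were higher and 372 lower. With at least 1 UMI, where more genes were tested, the counts were 5590 and 1475. There the floor of 3 UMIs also made genes with 0 KO and few WT UMIs count as higher. The counts at this limit therefore do not describe a difference between the libraries. Without the 5 richest cells of each library, which takes a larger share of KO cells, Ccl5 (0.0230) and Nkg7 (0.170) turned, and Il17a, within 2-fold before, lay at 0.584. Of KO members with a UMI this took 5 of 6 for Ccl5, whose low ratio was bound to follow, and 5 of 8 for Il17a. The alternatives that follow were chosen after seeing the data. Without cells rich in transcripts of other cells, the share ratios were 0.876 of all barcodes, 1.94 of Ptprc-positive barcodes and 1.87 of CD3-positive cells, 193 genes were higher and 422 lower, the cytotoxic median was 1.67, and Ccl20 (0.242), Itgae (1.03) and Entpd1 (1.13) turned, and Il17a lay at 0.390. Without cells very rich in them (at least 50 UMIs per 10000), Entpd1 (1.15), Ier3 (2.11) and the natural killer T-like median (0.45) turned. Without cells with Ikzf2, Penk (0.656) and Pdcd1 (0.812) turned. Where no reason is given, the cause was not tested.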

Other observations

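T cell receptor beta segments were counted in few members. At least 1 UMI of a Trbv segment was found in 8 of 53 KO members (15.1%) and 31 of 216 WT members (14.35%). It was found in 0% of B cells of both libraries, whose gate took only barcodes without a CD3 UMI. These covered 5 segments in KO and 12 in WT members, and 1 WT member held more than a single segment. Trbv13-2 was the segment of 3 of 8 KO members and 2 of 30 WT members with a single segment. Trbv19 was that of 6 of 30 WT members. These counts are too small to describe the repertoire.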
